A study of Mus musculus with 9 samples.

Results

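The genes described here encode the constitutive proteasome, the protease complex that every cell carries, in the kidney cortex of mice with and without an ischemic injury. They are the protein-coding genes whose symbol begins with Psma, Psmb, Psmc, Psmd or Psme followed by a digit, except the 3 immunoproteasome genes Psmb8, Psmb9 and Psmb10. The rule reads gene names only, and it took 42 of the 34669 genes in the table. Of these 42, 40 reached a mean of at least 0.5 FPKM (fragments counted for a gene, scaled by its exon length and by the fragments of the library) over the 9 libraries and were tested. The name rule also takes Psmc3ip, which encodes the meiotic recombination factor HOP2 and no proteasome subunit. It is counted among the members below, and no median or range of a proteasome part includes it.

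Messenger RNA was sequenced from the renal cortex of male wild-type C57BL/6 mice, 10 weeks old, in 3 groups of 3 libraries. In the TJ0113 group, both renal pedicles were clamped for 30 min (bilateral ischemia-reperfusion injury, bIRI) and the compound TJ0113 was given by gavage every day, from 3 days before surgery to sacrifice. In the vehicle group, the same injury was made and vehicle was given on the same schedule, and both injured groups were sampled 14 days after surgery. Sham mice had the operation without clamping, and neither their day of sampling nor any gavage is stated, so clamping, gavage and day cannot be told apart in differences from sham. All 3 groups share strain, sex, age and genotype. The labels do not say whether each library is 1 animal, so p-values measure the spread between these libraries.

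The proteasome degrades proteins marked with ubiquitin. Its core particle is a barrel of alpha and beta rings, and of the beta subunits only those encoded by Psmb5 (chymotrypsin-like), Psmb6 (caspase-like) and Psmb7 (trypsin-like) cut peptide bonds. A regulatory particle, with a base that holds a ring of ATPases (the Psmc genes) and a lid of non-ATPase subunits (most Psmd genes), caps the barrel, binds ubiquitin chains, unfolds the substrate and feeds it in. Other caps, the activators of the Psme genes, open the barrel without ubiquitin or ATP. Interferon gamma induces the immunoproteasome subunits, which replace the catalytic ones, together with the activator pair of Psme1 and Psme2. When proteasome activity falls, the transcription factor NRF1 raises subunit genes through antioxidant response elements, and ETS and CCAAT-binding factors are among others known at such promoters.

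The promoter windows below are examples from members described further on, and each holds a match to 1 of 4 motifs searched on both strands. Psmb5, Psmd9, Psmc2 and Psmd12 are shown although they passed the test threshold in no comparison as fitted. Other members that hold these motifs are not shown. They come from RefSeq on build GRCm38.p6, run 5′ to 3′ on the gene's strand and end at the base before the annotated start. Capitals mark the motif. The first set holds the antioxidant response element core TGACNNNGC, in Psmb5 (chr14:54617996-54618095, minus strand), Psmb6 (chr11:70525257-70525356, plus strand) and Psmd9 (chr5:123228090-123228189, plus strand).
Psmb5: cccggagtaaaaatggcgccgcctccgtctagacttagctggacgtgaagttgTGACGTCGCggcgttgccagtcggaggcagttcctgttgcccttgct
Psmb6: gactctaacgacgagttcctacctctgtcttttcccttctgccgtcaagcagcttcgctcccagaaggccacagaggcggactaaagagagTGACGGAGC
Psmd9: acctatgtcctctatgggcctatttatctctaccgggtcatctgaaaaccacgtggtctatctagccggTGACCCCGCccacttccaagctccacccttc
The second set holds an ETS site, CCGGAAG or its complement on the other strand, in Psme4 (chr11:30771675-30771774), Psmc1 (chr12:100110102-100110201), Psmc2 (chr5:21785175-21785274) and Psmd12 (chr11:107479428-107479527), all on the plus strand.
Psme4: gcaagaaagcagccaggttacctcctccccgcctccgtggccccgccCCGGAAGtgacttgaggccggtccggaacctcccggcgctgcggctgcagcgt
Psmc1: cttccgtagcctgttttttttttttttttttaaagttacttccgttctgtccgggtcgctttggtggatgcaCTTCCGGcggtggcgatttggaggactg
Psmc2: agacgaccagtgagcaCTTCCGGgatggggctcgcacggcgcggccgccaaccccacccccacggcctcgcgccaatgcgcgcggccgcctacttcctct
Psmd12: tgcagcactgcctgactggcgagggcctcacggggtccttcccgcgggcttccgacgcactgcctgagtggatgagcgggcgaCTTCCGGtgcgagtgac
In the windows of Psmd9 and Psme4 the motif overlaps a GC box (GGGCGG). The GENCODE genes of Psmb5, Psme4, Psmc1 and Psmd12 begin inside the window and that of Psmd9 upstream of it, so the 2 annotations place these starts differently. How many members hold each motif, and how those members changed, follows after the levels.

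The libraries held 62444722 to 85473202 counted fragments, recovered from the steps between low FPKM values, and a tested member had 223 to 15947 fragments in a library. All 10 proximal tubule markers and all 10 markers of other kidney epithelium were detected in each group, as the label renal cortex implies. Proximal tubule markers summed to 7597 to 27680 FPKM in TJ0113 libraries, 2010 to 27530 FPKM in vehicle libraries and 40760 to 47970 FPKM in sham libraries. Vehicle library 2 had the smallest difference from sham in both proximal tubule and macrophage markers among the vehicle libraries. The median gene differed by -0.03 between TJ0113 and vehicle, 0.30 between vehicle and sham and 0.26 between TJ0113 and sham on the log2(FPKM + 1) scale. Changes below are therefore given as log2 differences relative to that median gene. The tests were made on the values as deposited, so each p-value belongs to the change as fitted. The relative change printed beside it was not itself tested.

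Between TJ0113 and vehicle, no proteasome gene changed past the threshold. With limma on log2(FPKM + 1) and Benjamini-Hochberg adjustment over all 15453 genes, 0 of 40 members were higher and 0 were lower, as were 0 percent of all genes in each direction. At an unadjusted p under 0.05 there were 2 of 40 members, against 927 of all 15453 genes. The members' median change was 0.03, with a range from -0.41 (Psmd1) to 0.33 (Psmb6). In 2 members, Psmb4 and Psmb6, every TJ0113 library lay above every vehicle library, against 2.96 percent of all genes. In 6 members, Psmd1, Psmd2, Psmd5, Psmd11, Psmd13 and Psme3, every TJ0113 library lay below every vehicle library, against 4.39 percent of all genes.

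Between vehicle and sham, 6 of 40 members rose and 2 fell, in a setting where 31.3 percent of all genes were higher and 5.42 percent lower. The 6 were Psme1, Psme2, Psme2b, Psma7, Psmb4 and Psmd8, and the 2 were Psme4 and Psmd14. Relative to the median gene, 31 of 40 members were lower in vehicle than in sham, with a median of -0.12 and a range from -0.77 (Psme4) to 0.80 (Psme1). The vehicle libraries lay wholly above sham in 19 members and wholly below in 6, against 45.9 and 10.9 percent of all genes. The split depends on how libraries are scaled. With median-ratio scaling, which brings the median gene to -0.009, 3 members were higher (Psme1, Psme2 and Psme2b) and 9 lower (Psma6, Psmb7, Psmc1, Psmc2, Psmc6, Psmd6, Psmd12, Psmd14 and Psme4), against 2454 higher and 2359 lower of all 15453 genes. With equal FPKM sums 11 were higher and 0 lower, against 5775 higher and 571 lower of all genes. With quantile normalization 3 were higher and 6 lower, against 2041 higher and 2320 lower of all genes. The count of 8 also rests on single libraries: 4 members passed without vehicle library 1, 2 without vehicle library 3, 3 without sham library 1 and none without sham library 2 or 3.

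Between TJ0113 and sham, 6 of 40 members rose and 4 fell, against 28.9 percent of all genes higher and 5.92 percent lower. The 6 were Psme1, Psme2, Psme2b, Psma7, Psmb4 and Psmb6, and the 4 were Psme4, Psmd1, Psmc1 and Psmd14. The median relative to the median gene was -0.10, with a range from -1.04 (Psme4) to 1.02 (Psme1). TJ0113 libraries lay wholly above sham in 18 members and wholly below in 12, against 50.5 and 14.6 percent of all genes. With median-ratio scaling 3 members were higher and 15 lower, against 2867 higher and 2809 lower of all genes. With quantile normalization 6 were higher and 13 lower, against 2391 higher and 2854 lower of all genes. With equal FPKM sums 7 were higher and 1 lower, against 3455 higher and 622 lower of all genes. Without TJ0113 library 3, sham library 2 or sham library 3, the 3 members that passed were Psme1 and Psme2b, which were higher, and Psme4, which was lower. Without sham library 1, 5 members passed. Calls over all genes fell as well, from 4469 higher and 915 lower to 1236 and 193 without TJ0113 library 3. They were 2532 and 389 without sham library 1, 1106 and 166 without sham library 2 and 1276 and 193 without sham library 3. This comparison and that of vehicle with sham use the same sham libraries, and their values stand side by side for each gene below.

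**Figure D1:**
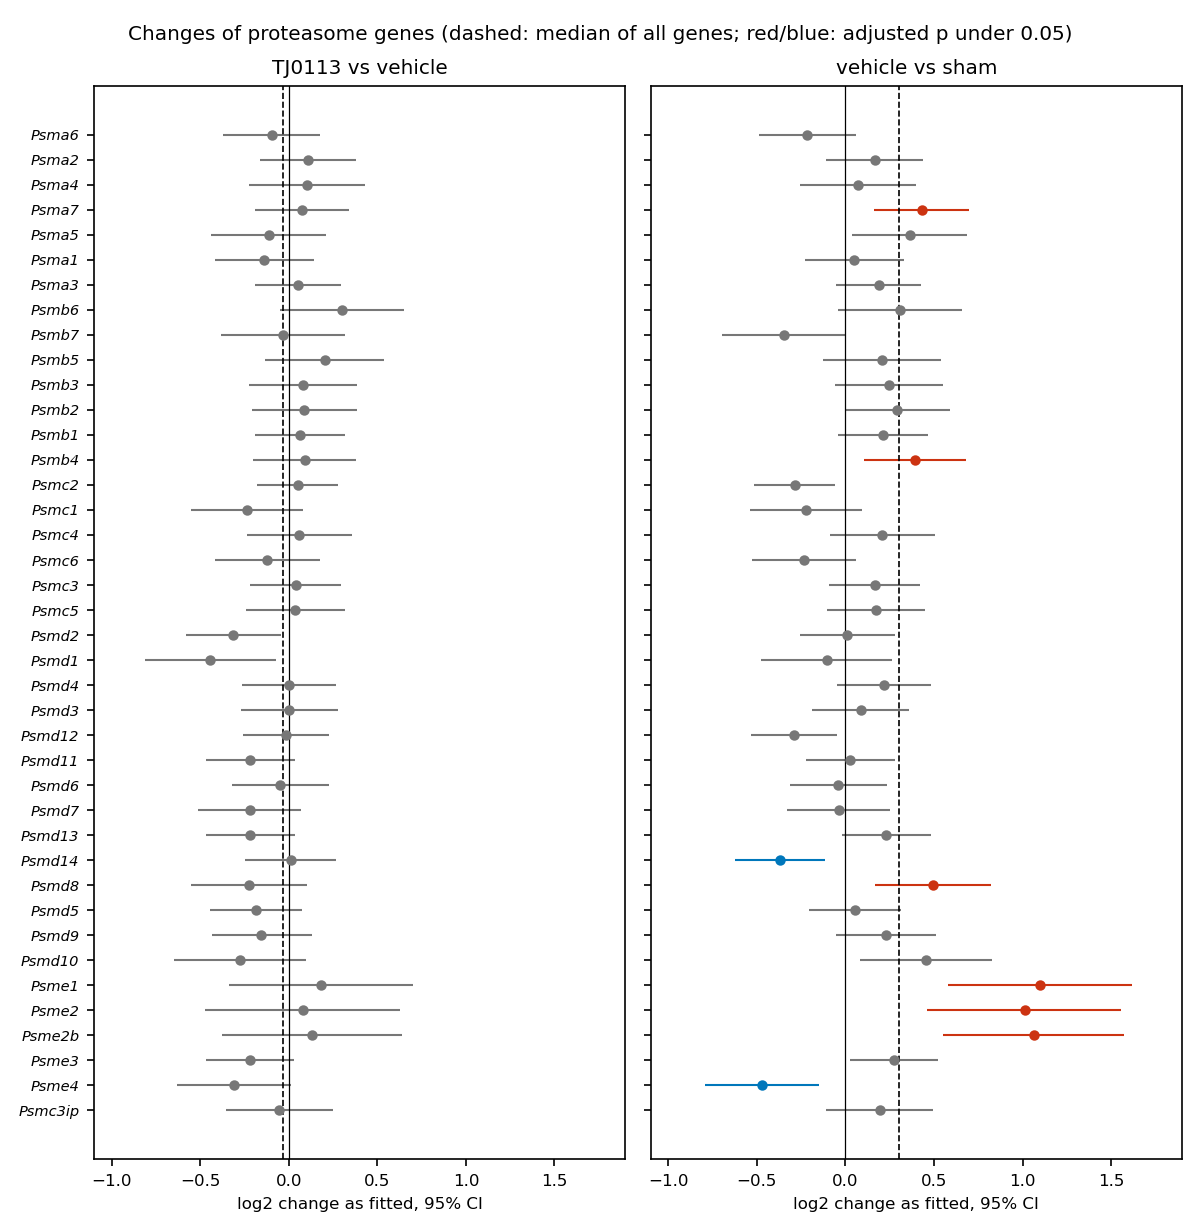
Log2 changes of the 40 tested members as fitted, before the median gene is subtracted, with 95% confidence intervals, for TJ0113 against vehicle (left) and vehicle against sham (right). The dashed line is the median of all genes tested, and red and blue mark members higher or lower at an adjusted p under 0.05. On the left all 40 points are grey, and on the right Psme1, Psme2 and Psme2b stand farthest to the right and Psme4 farthest to the left.

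The activators held the widest differences from sham among the members, and they went opposite ways. Psme1 encodes PA28 alpha (chr14:55578123-55581529, plus strand, GRCm38), which forms with PA28 beta, the product of Psme2 (chr14:55587441-55591113, minus strand), a cap that admits peptides. Psme1 had 45.4, 40.4 and 66.6 FPKM in TJ0113 libraries 1 to 3, 45.5, 32.6 and 56.0 FPKM in vehicle libraries and 22.1, 18.1 and 19.6 FPKM in sham libraries. Both injured groups lay wholly above sham and overlapped each other. Relative to the median gene, Psme1 was 1.02 ± 0.23 higher in TJ0113 than in sham (log2 ± SE, limma adjusted p = 0.00905) and 0.80 ± 0.23 higher in vehicle than in sham (adjusted p = 0.0127). As fitted, these were 2.43-fold and 2.14-fold.

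Psme2 had 26.6, 20.9 and 35.1 FPKM in TJ0113 libraries, 29.6, 17.4 and 31.9 FPKM in vehicle libraries and 13.0, 11.2 and 12.2 FPKM in sham libraries. It again lay wholly above sham in both injured groups, by 0.83 ± 0.24 in TJ0113 (adjusted p = 0.0134) and 0.71 ± 0.24 in vehicle (adjusted p = 0.0169). Psme2b, a retrogene copy of Psme2 on chromosome 11, had 17.1, 15.7 and 27.5 FPKM in TJ0113 libraries, 19.6, 13.2 and 21.2 FPKM in vehicle libraries and 8.34, 7.54 and 7.98 FPKM in sham libraries. Its sequence resembles that of Psme2, so reads may have been divided between the 2 genes and its values are uncertain. The ratio of Psme1 to Psme2 was 1.71, 1.93 and 1.9 in TJ0113 libraries, 1.54, 1.87 and 1.76 in vehicle libraries and 1.7, 1.61 and 1.6 in sham libraries. The ratio overlapped between vehicle and both other groups. Without sham library 2 or 3, adjusted p for Psme1 between vehicle and sham was 0.0545 or 0.0513. For Psme2 between vehicle and sham it was 0.0525 without vehicle library 1, 0.0524 without vehicle library 3 and 0.0649 or 0.0602 without sham library 2 or 3. For Psme2 between TJ0113 and sham it was 0.0538 without TJ0113 library 3 and 0.0558 or 0.0507 without sham library 2 or 3. For Psme2b between vehicle and sham it was 0.0539 or 0.0513 without sham library 2 or 3.

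Psme4 encodes PA200 (chr11:30771726-30880361, plus strand), a large single-chain cap known for histone degradation in testis and for DNA damage. Its levels were 14.1, 14.3 and 11.4 FPKM in TJ0113 libraries, 18.7, 17.6 and 13.9 FPKM in vehicle libraries and 21.9, 24.2 and 24.2 FPKM in sham libraries. Every injured library lay below every sham library, and TJ0113 and vehicle overlapped through vehicle library 3. As fitted, Psme4 changed by -0.78 in TJ0113 and -0.47 in vehicle against sham. Relative to the median gene, it fell by 1.04 ± 0.14 in TJ0113 against sham (adjusted p = 0.00924) and by 0.77 ± 0.14 in vehicle against sham (adjusted p = 0.0331). Between TJ0113 and vehicle it differed by -0.28 ± 0.14 (adjusted p = 0.796). The vehicle call rests on the scaling and on single libraries: adjusted p was 0.107 with equal FPKM sums, 0.0619 with no filter on low values, 0.0974 without vehicle library 3 and 0.0672 to 0.107 without any 1 sham library. The ratio of Psme1 to Psme4 was 3.22, 2.82 and 5.83 in TJ0113 libraries, 2.44, 1.85 and 4.02 in vehicle libraries and 1.01, 0.749 and 0.807 in sham libraries.

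Psme3 encodes PA28 gamma, the nuclear activator, and it did not pass in any comparison. It had 28.3, 26.5 and 26.6 FPKM in TJ0113 libraries, 32.8, 28.7 and 33.7 FPKM in vehicle libraries and 25.6, 25.8 and 26.7 FPKM in sham libraries. Vehicle lay above sham in every library pair and also above TJ0113, while TJ0113 and sham overlapped. Relative to the median gene, Psme3 differed by -0.18 ± 0.11 between TJ0113 and vehicle (adjusted p = 0.803) and by -0.02 ± 0.11 between vehicle and sham (adjusted p = 0.073). As deposited it was higher in vehicle than in sham, and that difference passed with equal FPKM sums (0.0446), with array weights (0.00572) and without vehicle library 2 (0.0225).

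**Figure D2:**
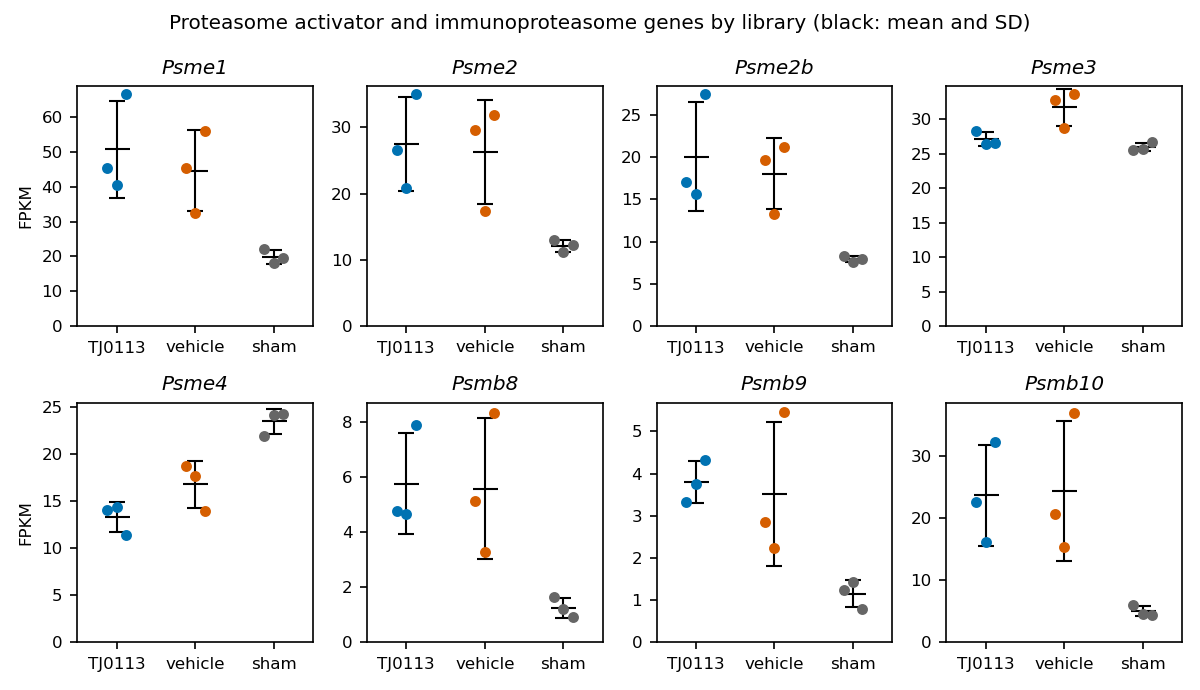
FPKM of the 5 activator genes and the 3 immunoproteasome genes in each library, one panel a gene, with TJ0113, vehicle and sham from left to right. Points are libraries, and the black bars are the mean and SD of 3. Psme1, Psme2, Psme2b and the immunoproteasome genes lie above sham in both injured groups, Psme4 lies below it, and Psme3 spans a narrow range.

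The 3 immunoproteasome genes, which the rule leaves out, rose with Psme1 and Psme2 in both injured groups. Psmb10, the inducible counterpart of Psmb7, had 22.7, 16.1 and 32.3 FPKM in TJ0113 libraries, 20.7, 15.5 and 37.1 FPKM in vehicle libraries and 6.05, 4.65 and 4.48 FPKM in sham libraries. It was 1.72 ± 0.32 higher in TJ0113 (adjusted p = 0.00809) and 1.69 ± 0.32 higher in vehicle (adjusted p = 0.00819) than in sham. Psmb8, the counterpart of Psmb5, was 1.30 ± 0.29 higher in TJ0113 (adjusted p = 0.00924) and 1.19 ± 0.29 higher in vehicle (adjusted p = 0.011). Psmb9, the counterpart of Psmb6, was 0.90 ± 0.24 higher in TJ0113 (adjusted p = 0.0116) and 0.72 ± 0.24 higher in vehicle (adjusted p = 0.0168). None of the 3 passed between TJ0113 and vehicle, where the lowest adjusted p was 0.949.

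Set against its constitutive counterpart within each library, the ratio of Psmb10 to Psmb7 was 1.57, 1.04 and 3.21 in TJ0113 libraries, 1.55, 1.08 and 2.92 in vehicle libraries and 0.349, 0.280 and 0.245 in sham libraries. The ratio of Psmb8 to Psmb5 averaged 0.0516 ± 0.0152 in TJ0113, 0.0598 ± 0.0317 in vehicle and 0.0151 ± 0.00448 in sham (SD, n = 3 each). For Psmb9 to Psmb6 the averages were 0.0488 ± 0.00387, 0.0552 ± 0.0225 and 0.0231 ± 0.00767 in TJ0113, vehicle and sham. All 3 ratios lay above sham in every injured library, with an exact two-sided permutation p of 0.1, the smallest that 3 against 3 can give, which is 0.169 after adjustment over 27 tests of 9 ratios. Between TJ0113 and vehicle the exact permutation p of these 3 ratios was 0.8 to 1.0 before adjustment.

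Markers of immune cells and of fibroblasts moved with these genes. Of 10 macrophage markers, 9 rose over sham in each injured group, against 28.9 percent of all genes in TJ0113 and 31.3 percent in vehicle. The 10 markers summed to 522 to 1075 FPKM in TJ0113, 318 to 1865 FPKM in vehicle and 43.5 to 63.2 FPKM in sham. Within each injured group library 3 had the highest macrophage sum and the highest Psme1 level, and library 2 the lowest of both. The order did not hold throughout. In sham the lowest sum was in library 3 and the lowest Psme1 level in library 2. Vehicle library 3 had a higher sum than TJ0113 library 3 (1865 against 1075 FPKM) and a lower Psme1 level (56.0 against 66.6 FPKM). Of 10 lymphocyte markers, 4 reached the filter and summed to 3.35 to 5.62 FPKM in TJ0113, 2.33 to 7.64 FPKM in vehicle and 1.17 to 1.96 FPKM in sham, while Cd3e, Cd79a, Ms4a1, Klrb1c and Ncr1 stayed under a mean of 0.5 FPKM in each group. Of 5 neutrophil markers, 3 reached the filter and summed to 5.40 to 43.5 FPKM in TJ0113, 4.49 to 33.5 FPKM in vehicle and 0.710 to 1.70 FPKM in sham, and Ly6g was at 0 in sham. Of 9 fibroblast and pericyte markers, 9 rose in TJ0113 and 8 in vehicle against sham, where 28.9 and 31.3 percent of all genes rose. The 9 markers summed to 143.8 to 223.3 FPKM in TJ0113, 70.32 to 306.9 FPKM in vehicle and 22.11 to 30.68 FPKM in sham. The part of these cells in the activator and immunoproteasome results was not tested, and in bulk tissue fewer cells of a type and less RNA per cell cannot be told apart.

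The constitutive catalytic subunits did not move together. Psmb5 (chr14:54614119-54618022, minus strand), the chymotrypsin-like subunit, had 111, 108 and 114 FPKM in TJ0113 libraries, 89.7, 111 and 89.8 FPKM in vehicle libraries and 88.3, 72.1 and 90.8 FPKM in sham libraries. TJ0113 lay above sham throughout, while vehicle library 2 lay within the TJ0113 range and the other vehicle libraries within the sham range. Psmb5 passed in no comparison, with 0.24 ± 0.15 between TJ0113 and vehicle (adjusted p = 0.846) and 0.15 ± 0.15 between TJ0113 and sham (adjusted p = 0.058). The last passed with equal FPKM sums (0.0468), with no variance trend (0.0457), with array weights (0.0131), with only those 2 groups fitted (0.0318) and without vehicle library 2 (0.0304) or 3 (0.0466).

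Psmb6 (chr11:70525367-70527858, plus strand), the caspase-like subunit, had 74.9, 73.7 and 84.1 FPKM in TJ0113 libraries, 51.8, 68.0 and 70.1 FPKM in vehicle libraries and 56.5, 45.6 and 50.02 FPKM in sham libraries. TJ0113 lay above both other groups in every library, and vehicle library 1 lay within the sham range. It rose in TJ0113 against sham, by 0.34 ± 0.15 (adjusted p = 0.0193), a call that ended with median-ratio scaling (adjusted p = 0.278), with the length trend removed (adjusted p = 0.178), without TJ0113 library 3 (adjusted p = 0.0695) and without sham library 2 or 3 (adjusted p = 0.0823 or 0.0701). Against vehicle the change was 0.33 ± 0.15, the highest of all members, with a 95% interval as fitted from -0.05 to 0.65 and an adjusted p of 0.81. Between vehicle and sham Psmb6 was at 0.01 ± 0.15 (adjusted p = 0.136), and as deposited it passed as higher with equal FPKM sums (0.0497).

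Psmb7 (chr2:38588036-38644087, minus strand), the trypsin-like subunit, had 14.4, 15.5 and 10.1 FPKM in TJ0113 libraries, 13.4, 14.3 and 12.7 FPKM in vehicle libraries and 17.4, 16.6 and 18.3 FPKM in sham libraries. Every injured library lay below every sham library, yet the gene did not pass, with -0.64 ± 0.16 in TJ0113 (adjusted p = 0.0798) and -0.65 ± 0.16 in vehicle (adjusted p = 0.0997) against sham. It passed as lower in both with median-ratio scaling (0.025 in TJ0113 and 0.0285 in vehicle), quantile normalization (0.0392 and 0.0385), the length trend removed (0.0274 and 0.032) and array weights (0.0226 and 0.0137). It also passed in TJ0113 without TJ0113 library 2 (0.0462) and in vehicle without TJ0113 library 3 (0.034). Its counted exons span 3421 bases, against 899 bases for Psmb5 and 1872 bases for Psmb6, a sum over all annotated exons that enters each FPKM. Within a library the ratio of Psmb5 to Psmb7 was 7.72, 6.98 and 11.3 in TJ0113, 6.71, 7.73 and 7.08 in vehicle and 5.09, 4.34 and 4.97 in sham. Sham lay below both injured groups, which overlapped each other.

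Of the other core subunits, 2 rose against sham. Psma7, of the alpha ring, had 37.3, 39.1 and 42.9 FPKM in TJ0113 libraries, 35.6, 36.1 and 41.6 FPKM in vehicle libraries and 27.3, 26.5 and 29.2 FPKM in sham libraries. Psmb4, a structural beta subunit, had 77.1, 78.3 and 76.7 FPKM in TJ0113 libraries, 67.5, 75.2 and 75.7 FPKM in vehicle libraries and 58.6, 48.3 and 59.0 FPKM in sham libraries. Both injured groups lay wholly above sham in both genes. Relative to the median gene, Psma7 was 0.24 ± 0.12 higher in TJ0113 (adjusted p = 0.015) and 0.13 ± 0.12 higher in vehicle (adjusted p = 0.0245) than in sham. Psmb4 was 0.22 ± 0.13 higher in TJ0113 (adjusted p = 0.0216) and 0.10 ± 0.13 higher in vehicle (adjusted p = 0.0403). As fitted, which is the change tested, Psma7 was at 0.51 in TJ0113 and 0.43 in vehicle, and Psmb4 at 0.48 and 0.39. With median-ratio scaling neither passed, and Psmb4 between vehicle and sham turned to -0.009. All 4 calls ended without any 1 sham library (adjusted p = 0.0518 to 0.159), both TJ0113 calls without TJ0113 library 3 (0.0554 and 0.0617) and both vehicle calls without vehicle library 3 (0.0682 and 0.0969). The Psmb4 calls ended also without TJ0113 library 1 (0.0557 against sham in TJ0113 and 0.0614 in vehicle), and in vehicle without TJ0113 library 2 (0.0533), which shares the estimate of spread, or vehicle library 1 (0.0548). With the length trend removed none of the 4 calls passed. The Psmb4 call in vehicle ended also with no filter (0.0599), quantile normalization (0.055) and only the 2 groups fitted (0.0677), and the Psma7 call in vehicle with quantile normalization (0.131). Among the 7 alpha genes, Psma6 was lowest, at -0.58 ± 0.12 in TJ0113 and -0.51 ± 0.12 in vehicle against sham without passing. It passed as lower in both with median-ratio scaling and with the length trend removed, and in TJ0113 under other settings as well. The 5 alpha genes besides Psma6 and Psma7 ranged from -0.35 to 0.07 in both. The 4 structural beta genes ranged from 0.01 to 0.22 in TJ0113 and from -0.09 to 0.10 in vehicle. Of these, Psmb2 in TJ0113 against sham was at 0.12 ± 0.13 (adjusted p = 0.0502). It passed there as higher with a pseudocount of 0.1, a filter of 2 FPKM, no variance trend, array weights and only the 2 groups fitted. Leaving out vehicle library 2 or 3 had the same result. Psma5 between vehicle and sham (adjusted p = 0.074) passed as higher with equal FPKM sums, with array weights and without vehicle library 2.

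Genes of the regulatory particle were mostly low relative to the median gene. Of its 17 genes, 16 were below the median gene in vehicle against sham, with a median of -0.29, and 15 in TJ0113 against sham, with a median of -0.45. In vehicle 1 rose (Psmd8) and 1 fell (Psmd14), and in TJ0113 none rose and 3 fell (Psmd1, Psmc1 and Psmd14). In vehicle that is 5.9 percent higher and 5.9 percent lower, against 31.3 and 5.42 percent of all genes, so the share that fell is at the background. In TJ0113 it is 0 and 17.6 percent, against 28.9 and 5.92 percent. As deposited, 9 of 17 were above sham in vehicle, with a median of 0.01, so in vehicle the direction holds relative to other genes only. In TJ0113, 7 of 17 were above sham and 10 below as deposited, with a median of -0.19.

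Psmd14 encodes Rpn11 (chr2:61711694-61800376, plus strand), the lid protease that removes ubiquitin chains from substrates. It had 16.9, 18.1 and 15.6 FPKM in TJ0113 libraries, 16.9, 16.6 and 16.7 FPKM in vehicle libraries and 21.5, 20.2 and 24.1 FPKM in sham libraries. Both injured groups lay wholly below sham and within the same narrow range. As fitted, Psmd14 changed by -0.36 in TJ0113 and -0.37 in vehicle against sham. Relative to the median gene, it fell by 0.62 ± 0.11 in TJ0113 (adjusted p = 0.0371) and by 0.67 ± 0.11 in vehicle (adjusted p = 0.0336). With equal FPKM sums neither call passed (adjusted p = 0.102 and 0.21). The TJ0113 call ended without TJ0113 library 1 (0.0859) or 3 (0.113) or any 1 sham library (0.0751 to 0.149), and the vehicle call with only the 2 groups fitted (0.0509) and without TJ0113 library 1 (0.0527), vehicle library 1 (0.0656) or 3 (0.0736) or any 1 sham library (0.0717 to 0.136). Psmd8, which encodes the lid subunit Rpn12, had 56.1, 46.8 and 48.9 FPKM in TJ0113 libraries, 61.7, 49.4 and 68.1 FPKM in vehicle libraries and 42.3, 40.6 and 42.4 FPKM in sham libraries. It lay above sham in all injured libraries and rose in vehicle, by 0.49 as fitted (adjusted p = 0.03) and 0.20 ± 0.14 relative to the median gene. That call ended with median-ratio scaling (adjusted p = 0.619), quantile normalization (0.0567), the length trend removed (0.315) or no filter (0.0558). The call ended also without vehicle library 1 (0.0741) or 3 (0.0878) and without any 1 sham library (0.0782 to 0.0983). Psmd12, the lid subunit Rpn5, had 26.0, 25.6 and 25.3 FPKM in TJ0113 libraries, 27.9, 24.8 and 25.2 FPKM in vehicle libraries and 30.0, 31.8 and 34.0 FPKM in sham libraries. It lay below sham in all injured libraries without passing, at -0.57 ± 0.11 in TJ0113 (adjusted p = 0.0541) and -0.59 ± 0.11 in vehicle (adjusted p = 0.0614). The vehicle difference passed with median-ratio scaling (0.0116), quantile normalization (0.0187) and the length trend removed (0.014). The TJ0113 difference passed under these settings too, and with array weights, with only the 2 groups fitted and without vehicle library 2 or 3.

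In the base, Psmd1 and Psmd2 were low in TJ0113 against both other groups. Psmd1 encodes Rpn2 (chr1:86064387-86139151, plus strand), a scaffold of the base, and had 13.7, 11.1 and 8.42 FPKM in TJ0113 libraries, 16.8, 14.3 and 14.3 FPKM in vehicle libraries and 15.6, 17.7 and 15.8 FPKM in sham libraries. Psmd2 encodes Rpn1 (chr16:20651652-20663414, plus strand), which binds ubiquitin and shuttle proteins, and had 45.1, 42.0 and 36.4 FPKM in TJ0113 libraries, 52.6, 50.9 and 50.2 FPKM in vehicle libraries and 51.2, 49.9 and 51.5 FPKM in sham libraries. In both genes every TJ0113 library lay below every vehicle and sham library, while vehicle and sham overlapped. Against vehicle, Psmd1 differed by -0.41 ± 0.17 (unadjusted p = 0.0247, adjusted p = 0.796 by limma) and Psmd2 by -0.28 ± 0.12 (unadjusted p = 0.0265, adjusted p = 0.796 by limma). Against sham, Psmd1 fell by 0.81 ± 0.17 in TJ0113 (adjusted p = 0.0322), a call that ended without TJ0113 library 2 (adjusted p = 0.054) or 3 (adjusted p = 0.0996) and without any 1 of the sham libraries (adjusted p = 0.0704 to 0.113). It ended also with equal FPKM sums (adjusted p = 0.07) and with no filter on low values (adjusted p = 0.066). Psmd2 did not pass against sham in TJ0113, at -0.57 ± 0.12 (adjusted p = 0.0713). It passed there as lower with median-ratio scaling, quantile normalization, the length trend removed and array weights.

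Among the 6 ATPases, Psmc1 encodes Rpt2 (chr12:100110154-100123405, plus strand), one of the subunits whose tail opens the gate of the barrel. It had 49.8, 47.6 and 39.1 FPKM in TJ0113 libraries, 60.5, 48.5 and 51.9 FPKM in vehicle libraries and 60.3, 64.0 and 63.4 FPKM in sham libraries. TJ0113 lay below sham throughout, and vehicle overlapped both. It fell by 0.72 ± 0.14 in TJ0113 against sham (adjusted p = 0.0338), which ended without TJ0113 library 3 (adjusted p = 0.112), without any 1 sham library (adjusted p = 0.0782 to 0.109) and with equal FPKM sums (adjusted p = 0.0871) or no filter (adjusted p = 0.0564). The ATPase genes split: Psmc1, Psmc2 and Psmc6 lay between -0.72 and -0.50 against sham in both injured groups, and Psmc3, Psmc4 and Psmc5 between -0.13 and 0.00. Psmc2 in vehicle (adjusted p = 0.0521) was nearest to the threshold among the ATPase genes that did not pass. Psmc2 passed as lower in both injured groups with median-ratio scaling, quantile normalization, the length trend removed and array weights.

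**Figure D3:**
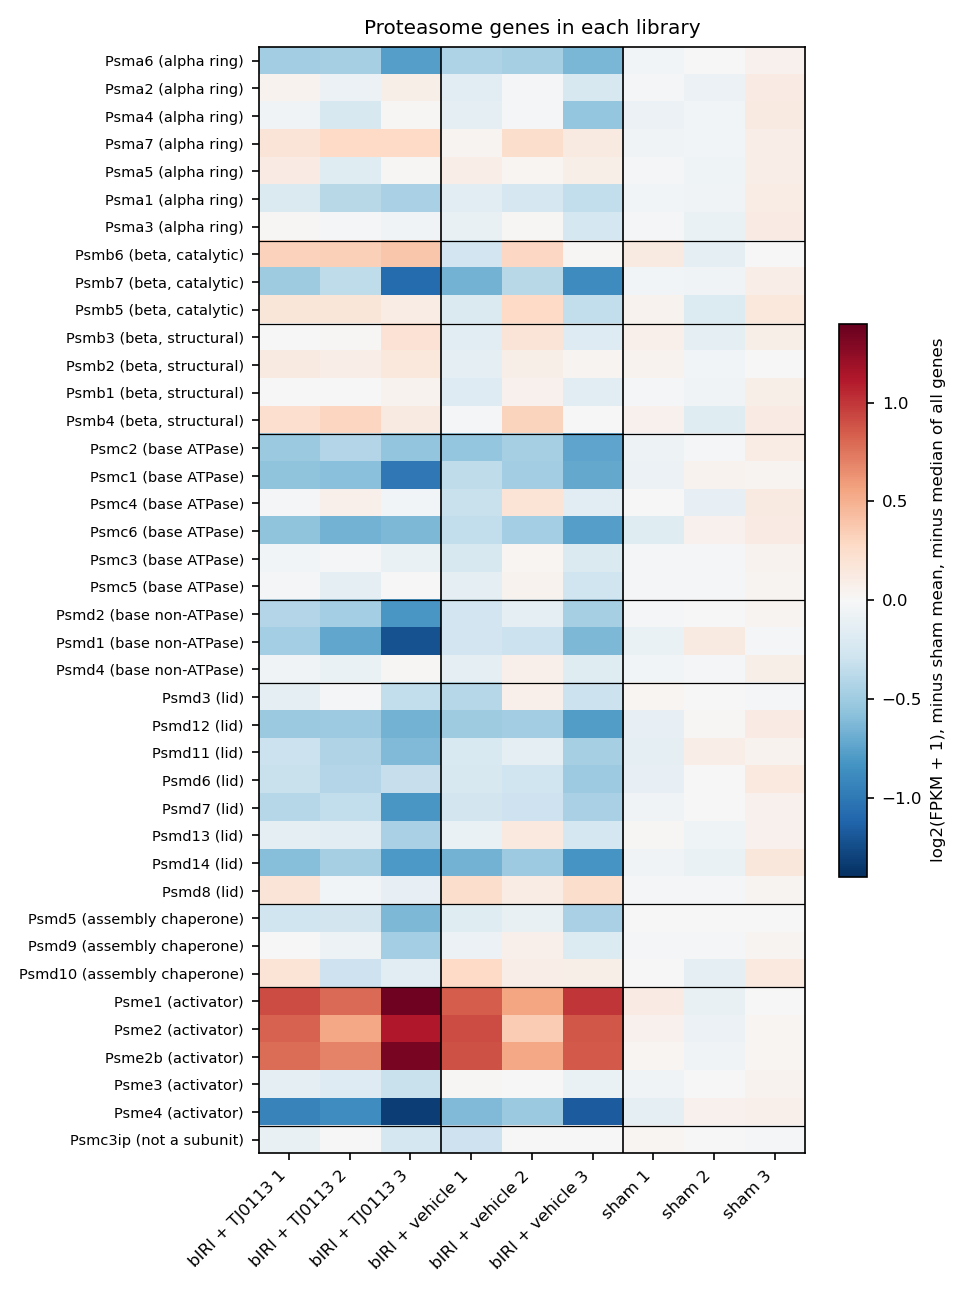
Each of the 40 tested members (rows, by role) in each library (columns), as log2(FPKM + 1) minus its mean in sham and minus the same median over all genes in that library. Red is higher and blue lower. The Psme1, Psme2 and Psme2b rows are red in all 6 injured libraries and the Psme4 row is blue, as are many base and lid rows, most deeply in TJ0113 library 3.

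Core and regulatory particle genes thus stood apart within injured libraries. For each library, the median over the 17 regulatory genes of the log2 difference from the sham mean was subtracted from the same median over the 14 core genes. This gap was 0.35, 0.39 and 0.62 in TJ0113 libraries, 0.11, 0.18 and 0.26 in vehicle libraries and 0.02, -0.05 and 0.04 in sham libraries. The 3 groups did not overlap, with TJ0113 highest and sham lowest. Since the gap is formed within a library, a factor common to a library's genes cancels, and with quantile normalization it was 0.38, 0.36 and 0.79 in TJ0113 libraries and 0.11, 0.2 and 0.25 in vehicle libraries. The FPKM sum of core genes over that of regulatory genes was 1.11, 1.11 and 1.22 in TJ0113 libraries, 0.975, 1.05 and 1.03 in vehicle libraries and 0.966, 0.879 and 0.944 in sham libraries, again without overlap. The particles were compared with results of these data known, and the gap is a description with no test. No single core gene passed between TJ0113 and vehicle, where the 14 core genes had a median of 0.11 and the 17 regulatory genes a median of -0.01.

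**Figure D4:**
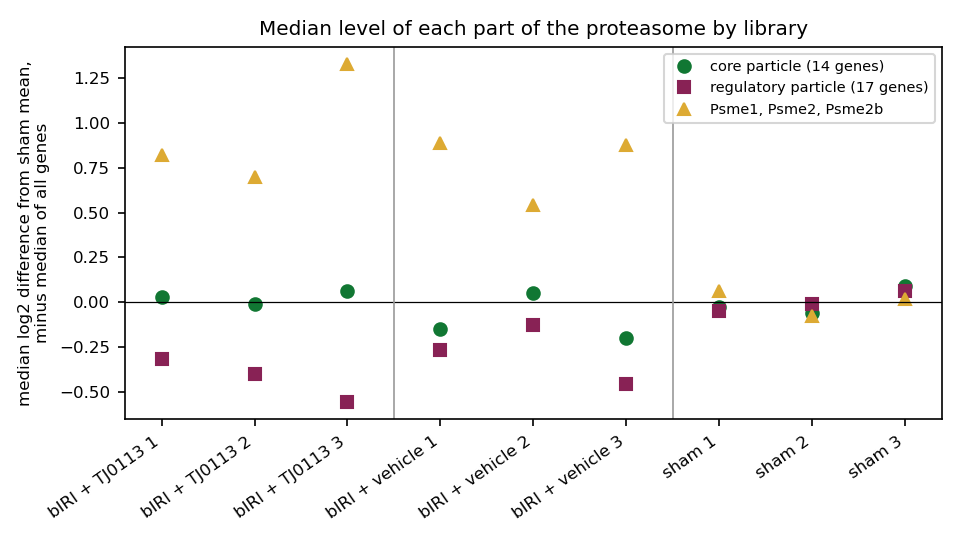
Median log2 difference from the sham mean, minus the median of all genes, for the core particle (14 genes), the regulatory particle (17 genes) and the genes Psme1, Psme2 and Psme2b in each library. The core particle stays between -0.20 and 0.09, the regulatory particle reaches -0.56 in TJ0113 library 3, and the activator pair with its copy reaches 1.33 in the same library.

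Gene length moved with the changes. Across the 40 members, the log2 change as fitted correlated with the logarithm of counted exon length at r = -0.47 between TJ0113 and vehicle and -0.44 between vehicle and sham, against -0.25 and 0.01 over the 15325 tested genes with a length. The points share libraries and depth, and the value is a description. Between TJ0113 and sham r was -0.52 across the members and -0.08 over all genes. Among the core and regulatory genes r was -0.41 between TJ0113 and vehicle, -0.25 between vehicle and sham and -0.38 between TJ0113 and sham. Long members differed among themselves: between vehicle and sham, Psme4 (8382 bases) was at -0.47 and Psmd1 (7265 bases) at -0.11 as fitted, and Psmd5 (7230 bases) and Psmd9 (7248 bases) at 0.06 and 0.23. With a trend on length removed within each library, the gap between core and regulatory genes was 0.37, 0.34 and 0.60 in TJ0113 libraries, 0.15, 0.18 and 0.28 in vehicle libraries and 0.03, -0.04 and 0.04 in sham libraries, close to the values without that step. The trend was fitted over all genes, whose r against sham was 0.01 in vehicle and -0.08 in TJ0113. The step therefore cannot show whether the members' own relation with length bears on the gap. The lengths are those that turn FPKM into whole fragments, and RNA integrity was not used here.

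**Figure D5:**
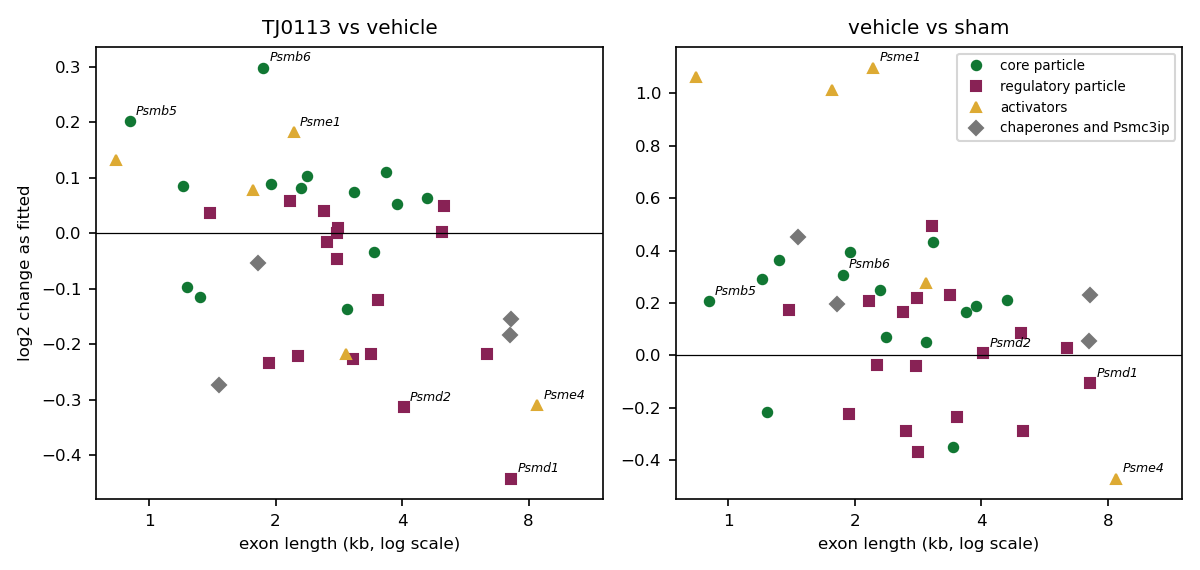
Log2 change as fitted against counted exon length (kilobases, log axis) for the 40 tested members, TJ0113 against vehicle on the left and vehicle against sham on the right, with symbols by part of the proteasome. On the left Psmb6 and Psmb5 are at the top and Psmd1 and Psme4, both long, at the bottom right.

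The base assembly chaperones, which guide ATPases into the base and leave before the particle is finished, did not pass in any comparison as fitted. Psmd5 had 6.08, 5.98 and 4.96 FPKM in TJ0113 libraries, 7.01, 6.42 and 6.26 FPKM in vehicle libraries and 6.45, 6.16 and 6.22 FPKM in sham libraries. Psmd9 had 4.69, 4.24 and 3.36 FPKM in TJ0113 libraries, 4.62, 4.54 and 4.75 FPKM in vehicle libraries and 3.84, 3.70 and 3.88 FPKM in sham libraries. Psmd10, the oncoprotein gankyrin, had 22.6, 15.3 and 18.9 FPKM in TJ0113 libraries, 25.2, 19.4 and 24.3 FPKM in vehicle libraries and 16.8, 14.7 and 17.9 FPKM in sham libraries. Psmd5 was lowest in TJ0113, whose libraries all lay below the other groups, and Psmd9 and Psmd10 lay above sham in every vehicle library while TJ0113 overlapped sham. Relative to the median gene they ranged from -0.24 to -0.12 between TJ0113 and vehicle, with adjusted p of 0.813 and above. Psmd10 between vehicle and sham, at 0.16 ± 0.17 (adjusted p = 0.0567), passed with equal FPKM sums (0.0383), with array weights (0.00551) and without TJ0113 library 2 (0.0454) or vehicle library 2 (0.0205). Psmd9 passed in the same comparison with array weights (0.0476), and Psmd5 between TJ0113 and sham, as lower, with median-ratio scaling (0.0326) and quantile normalization (0.0424).

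Assembly factors of the core particle, from a list outside the name rule, included 3 genes that rose against sham. Of 5 tested, Psmg2, Psmg3 and Psmg4 rose in TJ0113 (60.0 percent, against 28.9 percent of all genes) and Psmg3 and Psmg4 in vehicle (40.0 percent, against 31.3 percent), while Psmg1 and Pomp did not pass. Psmg4 had 30.5, 28.6 and 33.0 FPKM in TJ0113 libraries, 19.8, 26.3 and 30.9 FPKM in vehicle libraries and 14.4, 9.33 and 13.3 FPKM in sham libraries. It was 1.00 ± 0.20 higher in TJ0113 (adjusted p = 0.00775) and 0.70 ± 0.20 higher in vehicle (adjusted p = 0.011) than in sham, with both injured groups wholly above sham. The list's median was 0.12 in TJ0113 and -0.05 in vehicle against sham.

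Of 15 other subunits and regulators of the proteasome, 3 rose and none fell in vehicle against sham, and 2 rose and 2 fell in TJ0113 against sham. Both shares that rose are below the 31.3 percent (vehicle) and 28.9 percent (TJ0113) of all genes. The share that fell in TJ0113 was 13.3 percent, against 5.92 percent of all genes. Sem1, the smallest lid subunit, whose symbol lies outside the rule, had 23.6, 24.0 and 32.5 FPKM in TJ0113 libraries, 22.8, 20.6 and 24.5 FPKM in vehicle libraries and 16.9, 13.2 and 15.4 FPKM in sham libraries. It was 0.51 ± 0.16 higher in TJ0113 (adjusted p = 0.0109) and 0.26 ± 0.16 higher in vehicle (adjusted p = 0.0262). The shuttle factor Rad23b was lowest, at -0.78 ± 0.16 in TJ0113 (adjusted p = 0.0326) and -0.51 ± 0.16 in vehicle (adjusted p = 0.292), and Ubqln4, another shuttle, was highest in vehicle at 0.44 ± 0.16 (adjusted p = 0.014).

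Genes that control proteasome transcription through NRF1 differed in direction against sham. Between TJ0113 and vehicle none of 11 passed by limma, 2 had an unadjusted p under 0.05, and 10 lay below the median gene, with a median of -0.23. Nfe2l1, which encodes NRF1, had 33.0, 37.5 and 26.8 FPKM in TJ0113 libraries, 50.8, 36.3 and 48.2 FPKM in vehicle libraries and 34.7, 31.0 and 29.2 FPKM in sham libraries. Vehicle lay above sham throughout, TJ0113 overlapped both, and no comparison passed (adjusted p = 0.0507 between vehicle and sham and 0.796 between TJ0113 and vehicle). Of the 11 genes of this list, 3 rose and none fell in vehicle against sham, and 3 rose and 2 fell in TJ0113 against sham. The share that rose, 27.3 percent in each, is near that of all genes. The share that fell in TJ0113 was 18.2 percent, against 5.92 percent of all genes. Maff, a small MAF partner, was highest, at 1.65 ± 0.40 in TJ0113 (adjusted p = 0.0118) and 2.26 ± 0.40 in vehicle (adjusted p = 0.00798), and Ngly1, the enzyme that removes sugars from NRF1, was lowest, at -0.75 ± 0.12 in TJ0113 (adjusted p = 0.0158) and -0.62 ± 0.12 in vehicle (adjusted p = 0.0545).

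In the promoter table, 35 of the 42 members were matched by symbol, and motifs were searched in the 250 bases before each start. The ETS site was in 12 of 35 members (34.3 percent), against 6.9 percent of all 32851 promoters and 14.9 percent of expressed genes, those tested that have a promoter. The antioxidant response element core was in 5 members (14.3 percent), Psmb5, Psmb6, Psmc6, Psmd9 and Psmd12, against 10.2 percent of all promoters and 14.0 percent of expressed genes. The CCAAT box was in 40.0 percent of members, against 33.8 percent of promoters and 39.7 percent of expressed genes, and the GC box in 57.1 percent of members, against 32.7 and 61.7 percent. Of the 4 motifs, the ETS site had the widest gap between members and expressed genes. A match is a stretch of letters and no evidence of binding.

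Members with an ETS site were all below the median gene against sham. In vehicle against sham their 12 changes ranged from -0.77 (Psme4) to -0.02 (Psme3), with a median of -0.43, and the 22 tested members without a site had a median of -0.07. In TJ0113 against sham the medians were -0.53 and 0.00. Over all tested genes they were -0.02 with a site and 0.02 without in vehicle against sham. Of the 12, 8 belong to the regulatory particle, so site and part of the complex move together. Within the 14 regulatory genes with a promoter, the 8 with a site had a median of -0.43 (range -0.59 to -0.08) and the 6 without had -0.11 (range -0.67 to 0.20) in vehicle against sham, and the ranges overlap. Of 11 core genes with a promoter, only Psma6 held the site, and it was the lowest of those 11 against sham. Psmb7, the lowest of all core genes against sham, had no promoter entry. The members with an antioxidant response element core split, with Psmb5 and Psmb6 at 0.24 and 0.33 and Psmc6, Psmd9 and Psmd12 at -0.12 to 0.02 between TJ0113 and vehicle.

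The 2 members below the expression filter belong to other tissues. Psma8, the testis counterpart of Psma7 on chromosome 18, had 8 to 36 fragments a library, and Psmb11, the thymus counterpart of Psmb5 that lies beside it on chromosome 14, had 0 to 4. The tested member closest to the filter was Psmc3ip, with 2.12, 2.24 and 2.04 FPKM in TJ0113 libraries, 1.88, 2.09 and 2.86 FPKM in vehicle libraries and 1.96, 1.80 and 1.76 FPKM in sham libraries, and it passed in no comparison.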

How the data were processed

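The authors' deposited table gives FPKM per gene, which the authors scaled by gene length and by fragments counted in each library, per the values, and HISAT2 is named without a version per the submitters' processing notes. The authors' counter, genome build and gene models were not given in the sources used here. TJ013 in the treatment labels was read as the TJ0113 of the title. Symbols came from GENCODE release M21, which names 33893 of 34669 identifiers (97.8 percent). With its exon lengths, 98.7 to 99.0 percent of values under 20 fragments lay within 0.02 of a whole number, which gave the depth. Because the unit is FPKM, no count test was run.

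Groups were compared with limma on log2(FPKM + 1), with a variance trend, all 9 libraries in 1 fit, for the 15453 genes that averaged 0.5 FPKM or more, and Benjamini-Hochberg adjustment over all of them at 0.05. A fold change on this scale understates that of low genes. The script was tested on simulated data. Members, gene lists and motifs were chosen with earlier results of these data known. Values in every library are given for the catalytic subunits, activators, base chaperones, and the 4 largest and 4 smallest changes in each comparison. Psma7, Psmb4, Psmg4, Sem1, Nfe2l1 and the gap between particles were picked after their values were seen. Same-numbered libraries were not treated as pairs. A planned comparison of protein sequences was not run, as no protein table was at hand. Alternatives tried were another pseudocount, filters, scalings, a length trend, variance models, the replicate block and leaving out each library. Software was matplotlib 3.10.9, scipy 1.17.1, pandas 2.3.3 and numpy 2.4.6 in Python 3.11.15, and limma 3.58.1 in R 4.3.3.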

Additional observations from a re-analysis of the deposited data

How the results depend on the processing

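Between TJ0113 and vehicle, 0 members passed in either direction under every alternative run, each library left out included, and the median ranged from -0.031 to 0.065 over those. Array weights called 189 of all genes higher and 279 lower in that comparison, against 0 and 0 without them, and no member among them. Between vehicle and sham, members higher and lower (6 and 2 as reported) became 3 and 9 after median-ratio scaling, 3 and 6 after quantile normalization, 11 and 0 when FPKM sums were made equal, 3 and 9 with the length trend removed and 10 and 4 (14 in all) with array weights. No filter on low values gave 5 in all with 1 lower, and only the 2 groups compared gave 1 lower. Of all genes, 4839 were higher and 837 lower as reported, and 8083 and 1654 with array weights. With the length trend removed they were 2345 and 2064 of 15325 genes. No filter gave 2485 and 448 of 34669 genes, and only the 2 groups compared 3969 and 736. Between TJ0113 and sham (6 and 4, 10 in all), they were 3 and 15 (18) with median-ratio scaling, 13 lower (19) with quantile normalization, 3 and 14 (17) with the length trend removed and 16 and 10 (26) with array weights. No filter gave 2 lower, equal FPKM sums 1 lower, and only the 2 groups compared 7 lower. Of all genes, 4469 were higher and 915 lower as reported, and 7408 and 1951 with array weights. With the length trend removed they were 2639 and 2386 of 15325 genes. No filter gave 2667 and 538 of 34669 genes, and only the 2 groups compared 6322 and 1484. The members' median relative to all genes moved to 0.131 (no filter), -0.215 (median-ratio scaling) and 0.024 (quantile normalization) in vehicle against sham, and to 0.082 (no filter) and -0.002 (quantile normalization) in TJ0113 against sham. A sign change was counted as a reversal for called genes only, and the 1 found was Psmb4 between vehicle and sham, at -0.009 with median-ratio scaling. The causes were not tested.

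With 1 library left out, members called ranged from 0 (without sham library 2 or 3) to 11 (without vehicle library 2) between vehicle and sham, 0 to 9 higher and 0 to 3 lower, with medians from -0.209 to -0.068. Without vehicle library 1 there were 4, without vehicle library 3 there were 2, and without sham library 1 there were 3. Calls over all genes ranged there from 743 higher and 119 lower (without sham library 2) to 7427 and 1362 (without vehicle library 2). Between TJ0113 and sham, members called ranged from 3 (without TJ0113 library 3 or sham library 2 or 3) to 15 (without vehicle library 2), 2 to 8 higher and 1 to 7 lower, with medians from -0.162 to -0.072. Calls over all genes ranged there from 1106 higher and 166 lower (without sham library 2) to 6002 and 1311 (without vehicle library 2). With the replicate number as a block, 9 members passed between vehicle and sham and 9 between TJ0113 and sham. Under that block Psmd10 passed between vehicle and sham (adjusted p = 0.0224 by limma), and Psmb4 between vehicle and sham (0.0528) and Psmd14 between TJ0113 and sham (0.0539) did not. Deviations of same-numbered libraries correlated at -0.06, 0.50 and 0.56 between TJ0113 and vehicle and at -0.24 to -0.08 between vehicle and sham, so the numbers were not taken as pairs. Depth limits only Psma8 and Psmb11.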

Other observations

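Other quality-control systems of the cell, from lists outside the name rule, differed in how they stood against sham. Of 8 genes of the CCT chaperonin, which folds actin and tubulin, none passed in any comparison by limma, and at an unadjusted p under 0.05 there was 1, between vehicle and sham. All 8 lay below the median gene in both injured groups against sham, with medians of -0.20 in TJ0113 and -0.09 in vehicle, from Tcp1 at -0.53 and -0.37 to Cct7 at -0.06 and -0.01.

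Of 28 core autophagy genes, 4 rose and 3 fell in TJ0113 against sham, and 4 rose and 2 fell in vehicle against sham, with medians of -0.35 and -0.28. The share that rose was 14.3 percent in each, against 28.9 and 31.3 percent of all genes, and the shares that fell were 10.7 and 7.1 percent, against 5.92 and 5.42 percent. Gabarapl1, which encodes a protein conjugated to autophagosome membranes, was the lowest in both, with 208, 244 and 153 FPKM in TJ0113 libraries, 186, 211 and 158 FPKM in vehicle libraries and 324, 303 and 280 FPKM in sham libraries. It fell by 0.86 in TJ0113 (limma adjusted p = 0.0486) and by 1.01 in vehicle (limma adjusted p = 0.0289) relative to the median gene. Of 6 genes for ubiquitin and its activating enzymes, 3 rose in TJ0113 and 1 in vehicle against sham (against 28.9 and 31.3 percent of all genes). Rps27a, which encodes ubiquitin fused to a ribosomal protein and has many pseudogene copies that can share its reads, was the highest in both, at 1.11 in TJ0113 (limma adjusted p = 0.0156) and 0.58 in vehicle (limma adjusted p = 0.0601).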
